A study of Mus musculus with 4 samples.

Results

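The tumor suppressor p53, encoded by Trp53 in the mouse, and the genes that it is best known to activate were followed in Beko cells upon washout of a γ-secretase inhibitor (GSI). The 9 genes are Trp53 itself, Mdm2, Cdkn1a, Ccng1, Trp53inp1, Sesn1, Phlda3, Zmat3 and Eda2r, and they were taken by symbol from the 24391 genes of the count table. All 9 are in the table, and 8 had enough reads to be tested. Beko is a mouse leukemia line labelled as progenitor T cells, in which Notch signaling is constitutively active. The inhibitor, DAPT, stops γ-secretase from releasing the Notch intracellular domain. Of the 4 RNA-Seq libraries, 2 (GSI replicates 1 and 2) came from cells kept in GSI for 48 h, and 2 (washout replicates 1 and 2) came from cells that, after 48 h in GSI, were washed and grown without it during 24 h more. The dose is 10 mg/ml in the labels and 10 μg/ml in the methods. No untreated library is among these 4, and the washed cells were also washed once more and cultured 24 h longer, so removal of the inhibitor and the longer culture cannot be told apart. All libraries are of a single cell line, and nothing states whether replicates are separate cultures, so the p-values measure the spread between these libraries.

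p53 is a transcription factor that is held at a low level in resting cells, mainly because Mdm2, a ubiquitin ligase and itself a p53 target, marks it for degradation. DNA damage and other stresses break this hold, and p53 then activates genes for cell cycle arrest, DNA repair, metabolism and apoptosis. Since its activity is set largely at the protein level, the amount of Trp53 mRNA is not a measure of p53 activity. In developing T cells p53 is best known for guarding the checkpoints around rearrangement of the antigen receptor genes.

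Upon washout the 9 genes did not move as a group. Trp53 mRNA rose, whereas Cdkn1a, Trp53inp1 and Sesn1 fell, Trp53inp1 and Cdkn1a by the most. Mdm2, Ccng1 and Phlda3 had values close to those in GSI, Zmat3 was somewhat lower without passing the test, and Eda2r was not detected. Of the 8 genes tested, 1 rose and 3 fell at an adjusted p-value under 0.05 in edgeR's quasi-likelihood test. All 4 also had a log2 fold change above 1 or below -1, the second threshold of the study, and genes past both thresholds are called upregulated or downregulated here. Across all 12266 genes tested, 52.5% changed by the adjusted p-value alone (27% higher and 25.4% lower), so that 4 of 8 is close to the background. Past both thresholds were 19.5% of all genes, 7.74% upregulated and 11.7% downregulated. The log2 fold changes of the 8 genes spanned -2.87 to 1.14 with a median of -0.32, against a median of -0.01 over all genes tested.

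**Figure D1:**
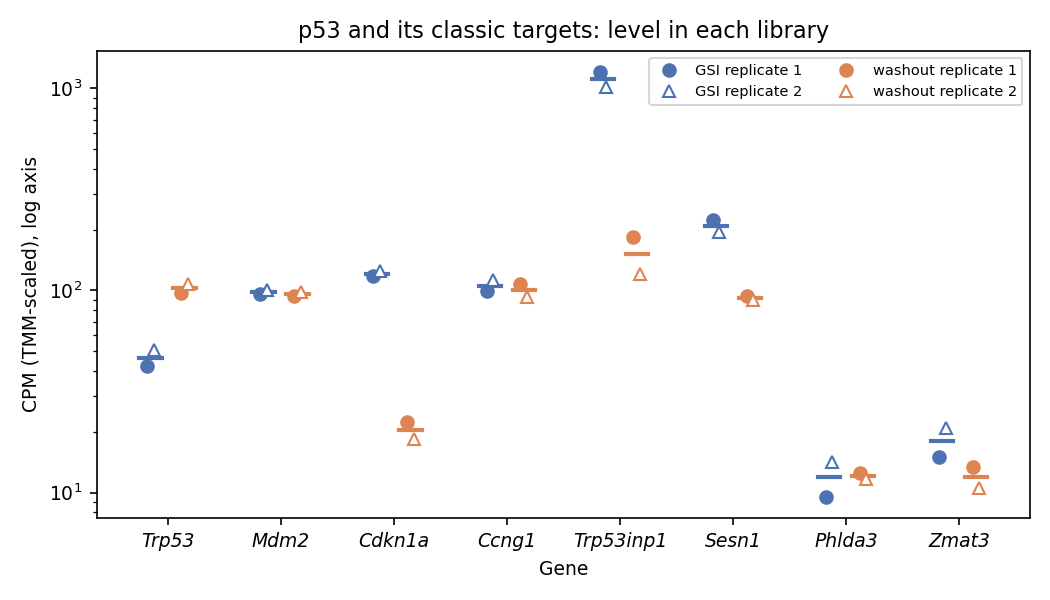
Level of the 8 detected genes in each library, in CPM (counts relative to the library size scaled by TMM factors), on a log axis, with filled circles for replicate 1, open triangles for replicate 2 and bars for the mean of the 2 libraries of a condition. The washout libraries lie above the GSI libraries for Trp53, below them for Sesn1 and far below them for Cdkn1a and Trp53inp1, and the conditions overlap for Mdm2, Ccng1 and Phlda3.

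The libraries held between 13716199 and 36364200 counted reads, and replicate 1 was the deeper library in both conditions. A count of 3, taken as the limit of detection, corresponds to 0.0881 to 0.223 CPM, which covers counting error only. The label of the cell line was checked against markers. All 17 genes of a progenitor T-cell list were tested, with a summed level of 8677 and 9271 CPM in GSI and of 7113 and 7231 CPM upon washout. Of these 17, 9 fell and 3 rose at the adjusted p-value, and 5 were past both thresholds, with log2 fold changes of 2.37 for Ptcra, -1.67 for Gata3, -1.62 for Dntt, -1.29 for Cd8b1 and -1.16 for Cd4. Over all genes tested, 25.4% fell and 27% rose at the adjusted p-value, and 19.5% were past both thresholds. None of 6 B-cell genes reached the test, and Pax5, Ebf1 and Ms4a1 had 0 reads in every library. Of 8 myeloid and mast cell genes, Lyz2, Elane, Mcpt8 and Ms4a2 had 0 reads in every library. The summed level of that list was between 115.6 and 224.8 CPM in GSI and between 7.14 and 14.8 CPM upon washout, and came almost entirely from Cpa3 and Itgam. Erythroid genes summed to 10.4 to 12.03 CPM in GSI and 4.39 to 4.99 CPM upon washout, with the hemoglobin genes Hbb-b1 and Hba-a1 at 0. Fibroblast genes summed to 3.02 to 3.16 CPM and 1.38 to 1.56 CPM. These levels moved with the condition, and their part in the results was not tested. In such bulk libraries, fewer cells of a type and less RNA per cell cannot be told apart.

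p53 binds DNA at a pair of half-sites, each with a consensus of 10 bases around a core of C, then A or T at both middle positions, then G. A pair without a spacer, with intact cores and with at most 1 mismatch outside them, was searched in the mm9 genome from 3000 bases before to 1000 bases after the annotated start of each gene. The consensus is its own reverse complement, so both strands are covered. Such a pair was found for 99 of 19024 protein-coding genes, or 0.52%, and for 2 of the 9 genes, Cdkn1a and Ccng1. Among the other p53 targets considered further on, Rps27l and Psrc1 carried a pair in an intron and Gdf15 in an exon. The pairs are shown because they belong to genes that differed in their response, and are written on the strand of the gene with the cores in capitals:
Cdkn1a: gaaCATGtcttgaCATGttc
Ccng1: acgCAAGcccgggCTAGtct
Rps27l: gggCTTGttgagaCTTGtcc
Psrc1: gggCATGttgaggCATGccc
The pair of Cdkn1a lies at chr17:29227873-29227892, with its center 42 bases upstream of the most upstream start in the annotation. The pair of Ccng1 lies at chr11:40568438-40568457 in an intron, with its center 365 bases after the start, and those of Rps27l (chr9:66794103-66794122) and Psrc1 (chr3:108187574-108187593) 219 and 826 bases after it. A match of letters is a description and not evidence of binding, and the lack of a match in this window says nothing about the other genes.

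Trp53, the gene of p53 itself, lies at chr11:69393861-69405375 on the plus strand. Its reads numbered 1358 and 738 in GSI replicates 1 and 2, and 3308 and 1452 upon washout. Scaled to library size this was 42.4 and 50.6 CPM in the GSI libraries, against 97.2 and 108.0 CPM after washout. Both washout libraries lay above both GSI libraries, as they did for 38.2% of all genes tested. The conditions were without overlap for 5 of the 8 genes, against 77.3% of all genes. Trp53 rose 2.21-fold, a log2 fold change of 1.14 (standard error, SE, 0.122, adjusted p = 0.000806 in edgeR's quasi-likelihood test), and 94.3% of the genes tested had a lower or equal value. When libraries were scaled to their total count, the log2 fold change of Trp53 was 0.95 and no longer past the second threshold. That scaling lowered the median of all genes to -0.21. It moves all genes by nearly the same amount, so the value of Trp53 relative to the shift, 1.14, is no separate check. In this annotation Trp53 overlaps no other gene, and Wrap53, its neighbor in the opposite orientation, had a log2 fold change of 0.27 (adjusted p = 0.0823 in the same test, and 0.0253 with a replicate block). The 3 genes whose pattern over the 4 libraries lay closest to that of Trp53, among 5993 genes of similar or higher level, were Ptbp1, Ddx39b and Ndufa4. Their distances, taken between centered log2 CPM values, were 0.0148, 0.0415 and 0.0445.

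Mdm2, at chr10:117125944-117147814 on the minus strand, encodes the main inhibitor of p53 and closes a feedback loop as a p53 target. It had 96.0 and 100 CPM in the GSI libraries, against 93.9 and 97.9 CPM after washout. The 4 values lay within a few CPM of each other and the conditions overlapped. The log2 fold change of Mdm2 was -0.03 (SE 0.0890, adjusted p = 0.791 in edgeR's quasi-likelihood test), with a 95% interval from -0.25 to 0.18. Changes beyond the study's second threshold lie outside this interval. Under total-count scaling the value was -0.23, with the median of all genes at -0.21.

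Cdkn1a encodes p21, the inhibitor of cyclin-dependent kinases through which p53 arrests the cell cycle. The gene lies at chr17:29227924-29237667 on the plus strand. Reads on Cdkn1a numbered 3779 and 1814 in GSI and 757 and 249 upon washout, or 118.1 and 124.3 CPM against 22.2 and 18.5 CPM. The replicates lay close together in each condition and the conditions were far apart. Cdkn1a was 5.90-fold lower upon washout, with a log2 fold change of -2.56 (SE 0.121, adjusted p = 0.000281 in the same test). Only 1.67% of the genes tested had a value this low or lower. Whichever single library was left out, Cdkn1a stayed between -2.70 and -2.43. Closest to its pattern among 6944 genes were Lpar6, Rasgrp1 and Ly6a, at distances of 0.225, 0.238 and 0.239 on the log2 scale.

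Trp53inp1 encodes a stress-induced protein that takes part in p53-dependent apoptosis and in autophagy, and lies at chr4:11083578-11101526 on the plus strand. It was the most abundant of the 9 genes in GSI, with 38510 and 14882 reads or 1204 and 1020 CPM, and had 183.1 and 121.2 CPM upon washout. All values in GSI were several times those upon washout, and the washout replicates differed by more than the GSI replicates in proportion. The fall of Trp53inp1 was 7.29-fold, a log2 fold change of -2.87 (SE 0.224, adjusted p = 0.000397 in the same test). Leaving out washout replicate 1 gave -3.19 for Trp53inp1, and leaving out washout replicate 2 gave -2.59. Its relative Trp53inp2, with a similar role in autophagy, fell as well, from 21.1 and 17.5 to 3.94 and 3.13 CPM (log2 fold change -2.43).

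Sesn1 encodes sestrin 1, which restrains the growth kinase mTORC1, and lies at chr10:41530380-41628230 on the plus strand. It had 223.6 and 193.9 CPM in the GSI libraries, against 93.7 and 89.3 CPM after washout, without overlap. Sesn1 was 2.28-fold lower, with a log2 fold change of -1.19 (SE 0.109, adjusted p = 0.000548 in the same test). The other sestrins moved the same way. Sesn2 fell from 52.0 and 58.6 to 21.4 and 29.4 CPM (log2 fold change -1.13), and Sesn3 from 125.6 and 134.2 to 56.0 and 50.9 CPM, by 1.28. Sesn2 did not stay past the second threshold without washout replicate 1 (-0.90) or after correction for GC content and length (-0.86). Sesn2 is also a p53 target, whereas Sesn3 is better known as a target of FoxO factors.

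Ccng1 encodes cyclin G1, which recruits a phosphatase to Mdm2, and lies at chr11:40562054-40568813 on the minus strand. It had 99.4 and 112.2 CPM in the GSI libraries, against 107.2 and 92.9 CPM after washout, and the libraries of the conditions were intermingled. The log2 fold change of Ccng1 was -0.08 (SE 0.115, adjusted p = 0.603 in edgeR's quasi-likelihood test), with a 95% interval from -0.36 to 0.20. Its relative Ccng2, a cyclin better known as a FoxO target, fell from 109.2 and 131.2 to 36.0 and 49.7 CPM and was 2.82-fold lower (adjusted p = 0.00111 in the same test). The difference between both cyclins was not tested.

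Phlda3, at chr1:137662696-137665713, encodes a small protein that competes with the kinase Akt for membrane lipids. It was a low gene with 9.56 and 14.3 CPM in the GSI libraries, against 12.5 and 11.7 CPM after washout, so that the washout values lay between the GSI values. The log2 fold change of Phlda3 was 0.04 (SE 0.221, adjusted p = 0.893 in the same test), and its 95% interval from -0.50 to 0.58 was wider than that of Mdm2 or Ccng1. Its sign turned under total-count scaling (-0.16), and the value ranged from -0.24 to 0.35 with 1 library left out. Zmat3, at chr3:32233718-32264600, encodes a zinc finger protein that binds RNA. It had 15.1 and 20.8 CPM in the GSI libraries, against 13.4 and 10.5 CPM after washout, without overlap, as 39.1% of all genes tested were lower without overlap. The log2 fold change of Zmat3 was -0.56 (SE 0.213, adjusted p = 0.0666 in the same test), with a 95% interval from -1.08 to -0.05. The call on Zmat3 depended on the setting, with adjusted p-values in edgeR's test between 0.00506 with a replicate block and 0.343 without GSI replicate 2. Eda2r, at chrX:94529179-94572555, encodes a receptor of the TNF receptor family and had 0 reads in all 4 libraries. At this depth a level up to 0.0881 to 0.223 CPM per library is allowed.

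**Figure D2:**
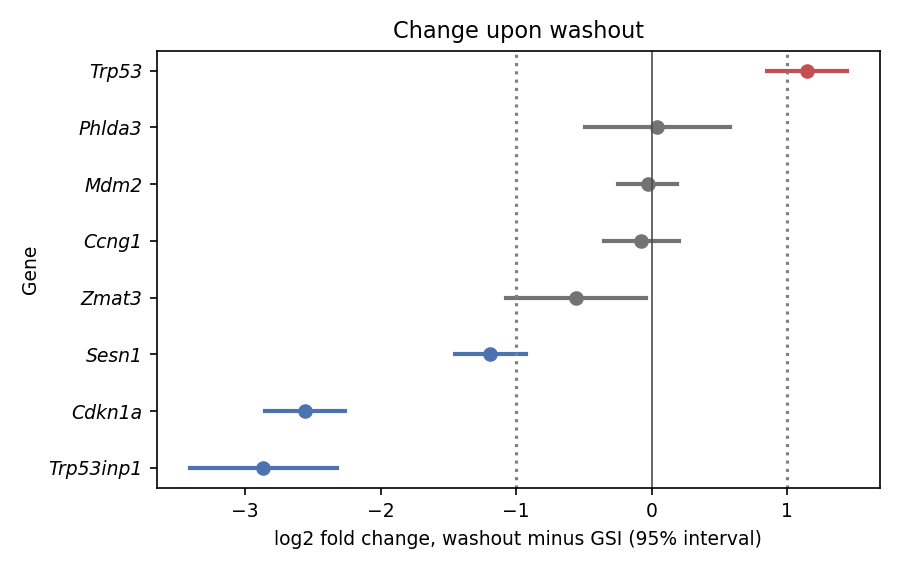
Log2 fold changes, washout relative to GSI, of the 8 tested genes (points) with 95% intervals (lines), red for upregulated, blue for downregulated and gray for the others; dotted lines mark log2 fold changes of -1 and 1. The intervals of Trp53inp1 and Cdkn1a lie wholly below -1, whereas those of Sesn1 and Trp53 reach across the thresholds of -1 and 1.

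To compare levels between genes, CPM values were divided by the length of all annotated exons, giving RPKM values. On this scale Trp53inp1 was first in GSI with 171.7 ± 20.1 (SD, n = 2), followed by Sesn1 with 62.7 ± 6.31, Cdkn1a with 54.5 ± 1.98 and Ccng1 with 30.1 ± 2.57. Below these came Mdm2 with 19.3 ± 0.560, Trp53 with 11.5 ± 1.42, Phlda3 with 7.64 ± 2.13 and Zmat3 with 2.22 ± 0.505. Neighbors in this order did not overlap between their libraries, although this is only 2 libraries each. Upon washout the order was different. Ccng1 (28.5 ± 2.89), Sesn1 (27.5 ± 0.936), Trp53 (25.4 ± 1.90) and Trp53inp1 (23.5 ± 6.76) came close together. Ccng1 and Sesn1 overlapped in their libraries, as did Trp53 and Trp53inp1, and Trp53inp1 and Mdm2 (18.9 ± 0.557). Beyond neighbors in rank, Trp53inp1 also overlapped Sesn1 and Ccng1, and Ccng1 overlapped Trp53. Cdkn1a dropped to 9.17 ± 1.18, next to Phlda3 with 7.74 ± 0.352, and Zmat3 was last of the detected genes with 1.48 ± 0.254. The ranks depend on the length used, since by the longest transcript Mdm2 had 31.3 in GSI.

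**Figure D3:**
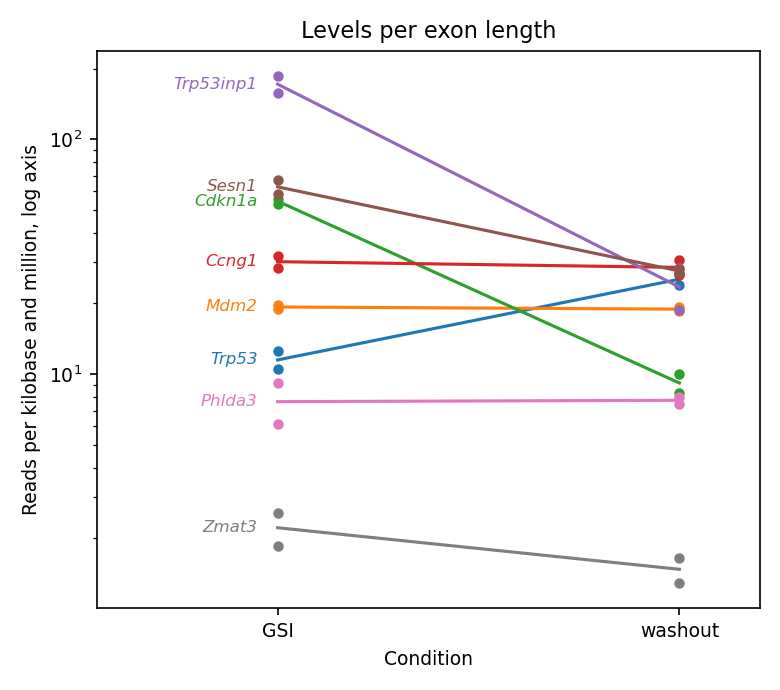
Level per exon length of the 8 detected genes in GSI and upon washout, in RPKM on a log axis, with points for libraries and lines joining the means. Trp53 and Trp53inp1 are far apart in GSI (11.5 and 171.7) and close to each other upon washout (25.4 and 23.5).

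Other p53 targets were read from a list of 22 genes of arrest, repair and metabolism and a list of 13 genes of apoptosis. Of the former, 17 were tested, 9 fell and 3 rose at the adjusted p-value, and 5 were downregulated and 2 upregulated past both thresholds. Among all genes tested 25.4% fell and 27% rose, and 11.7% were downregulated and 7.74% upregulated. The median log2 fold change of the list was -0.52, against -0.01 over all genes. Btg2, an antiproliferative gene that is also an immediate early gene, fell from 652.6 and 764.2 to 122.5 and 151.3 CPM (log2 fold change -2.37, adjusted p = 0.000325 in edgeR's quasi-likelihood test). Gadd45a, with a role in arrest and repair, fell by 1.32 from 69.1 and 57.4 to 33.6 and 16.0 CPM. Its washout replicates differed, and Gadd45a was at -0.90 once washout replicate 2 was left out. Gadd45a and E230016M11Rik, on the other strand, share exonic bases. Ptprv, a phosphatase gene, fell by 1.06, and by 0.96 without washout replicate 1. Ephx1, for a detoxifying epoxide hydrolase, fell by 2.67 but rests on 45 and 8 reads in GSI and 8 and 0 upon washout, and with DESeq2 its adjusted p-value was 0.0513. Without washout replicate 2 the value of Ephx1 was -2.11. Without washout replicate 1 it was -7.39, which is set against a library with 0 reads and is no bound, and without GSI replicate 1 the gene had too few reads to be tested. Below the second threshold lay the repair genes Ddb2 (-0.69), Ercc5 (-0.52) and Xpc (-0.41), given with their log2 fold changes. Ddb2 shares exonic bases with Acp2 on the other strand. The call on Xpc was lost without GSI replicate 1 (adjusted p = 0.0722) and without GSI replicate 2 (0.0707) in edgeR's test. Rrm2b, for a ribonucleotide reductase subunit, also fell, by 0.70, but not without GSI replicate 1 (adjusted p = 0.112 in edgeR's test). In the other direction, Gls2, for a glutaminase, sharing exonic bases with Spryd4 on the other strand, rose by 1.25 from 3.53 and 3.29 to 8.34 and 7.89 CPM. Rps27l, for a ribosomal protein relative, rose by 1.04, a value that was 0.84 under total-count scaling, 0.99 without GSI replicate 2, 0.84 without washout replicate 1 and 0.79 after correction for GC content and length. Psrc1 was at 22.6 and 25.4 CPM in the GSI libraries, against 22.2 and 23.5 CPM after washout.

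Of the 13 apoptosis genes, 9 were tested, with a median log2 fold change of 0.75 against -0.01 over all genes. Here 3 fell and 5 rose at the adjusted p-value, and 2 were downregulated and 2 upregulated past both thresholds. Over all genes 52.5% changed in either direction and 19.5% passed both thresholds. Both downregulated genes are strong inducers of cell death. Bbc3, the gene of the BH3-only protein Puma, fell from 15.4 and 20.8 to 2.85 and 4.24 CPM (log2 fold change -2.39, adjusted p = 0.000915 in edgeR's quasi-likelihood test). Fas, the death receptor gene, fell from 22.5 and 20.2 to 5.91 and 4.69 CPM, by 1.99 (adjusted p = 0.000525 in the same test). Both genes lay lower in each washout library than in each GSI library, as did 39.1% of all genes tested. Siva1, whose product takes part in apoptosis, rose from 14.1 and 14.0 to 33.7 and 38.2 CPM, by 1.35. Aen, for a nuclease of apoptotic cells, rose from 29.8 and 25.2 to 69.1 and 65.0 CPM, by 1.28. The pore-forming Bax rose by 0.75, from 32.3 and 30.8 to 53.5 and 52.7 CPM. Bid, which activates Bax, rose by 0.86, and shares 628 exonic bases with Bcl2l13 on the other strand. Pidd1, a scaffold of caspase activation, rose by 0.87, and by 1.14 without GSI replicate 2. Apaf1 fell by 0.29 with an adjusted p-value of 0.0467 in edgeR's test, a call that was lost when any 1 of the 4 libraries was left out (0.0836 to 0.319).

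Of 18 genes that act on p53, 17 were tested, 5 rose and 2 fell at the adjusted p-value, and only Chek1 was past both thresholds, with a median of 0.27 for the list. The shares over all genes were 27% higher and 25.4% lower at the adjusted p-value, and 19.5% past both thresholds. Chek1 encodes a kinase of the replication checkpoint. It rose from 21.9 and 28.6 to 123.5 and 104.1 CPM, with a log2 fold change of 2.19 (adjusted p = 0.000347 in edgeR's quasi-likelihood test). The kinase genes Atm and Atr rose by 0.57 each and Chek2 by 0.52, although Chek2 was not called without GSI replicate 1 (adjusted p = 0.130 in edgeR's test), nor was Atm (0.0537). Atr shares exonic bases with transcripts on the other strand. Mdm4, the partner of Mdm2 in holding p53 back, fell by 0.44 from 178.7 and 190.5 to 142.6 and 128.5 CPM, and its adjusted p-value was 0.0854 without GSI replicate 2. Ep300, a coactivator of p53 and of Notch, fell by 0.88, and by 1.07 both without GSI replicate 1 and under total-count scaling. Cop1, listed under its older symbol Rfwd2, had a value of 0.32 that did not pass without any 1 of the GSI libraries or without washout replicate 1. The lowest value belonged to Hipk2, a kinase of p53, at -0.89 (SE 0.688, adjusted p = 0.319 in edgeR's test). The replicates of Hipk2 differed, with 6.59 and 1.92 CPM in the GSI libraries, against 3.47 and 0.967 CPM after washout. Without GSI replicate 1 its log2 fold change was 0.30, and without washout replicate 1 it was -2.19 with an adjusted p-value of 0.0385 in the same test. Cdkn2a, whose Arf product inhibits Mdm2, had 0 reads in every library.

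Relatives of the 9 genes by sequence or family, which are not all p53 targets, made up a list of 12. Of these, 6 were tested, all 6 fell at the adjusted p-value and 4 were downregulated past both thresholds, against 25.4% and 11.7% of all genes. Besides Trp53inp2, Ccng2 and Sesn3 described above, Phlda1 fell from 44.4 and 44.5 to 21.2 and 18.9 CPM (log2 fold change -1.14), and by 0.88 after correction for GC content and length. Cdkn1b, the gene of p27, a kinase inhibitor like p21, fell by 0.82 from 111.9 and 95.5 to 61.6 and 56.0 CPM. Zmat1 fell by 0.74 with an adjusted p-value of 0.0302 in edgeR's test, a call that was lost when any 1 library was left out (0.0724 to 0.140). Trp63 and Trp73, the other genes of the p53 family, had at most 1 read in any library.

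**Figure D4:**
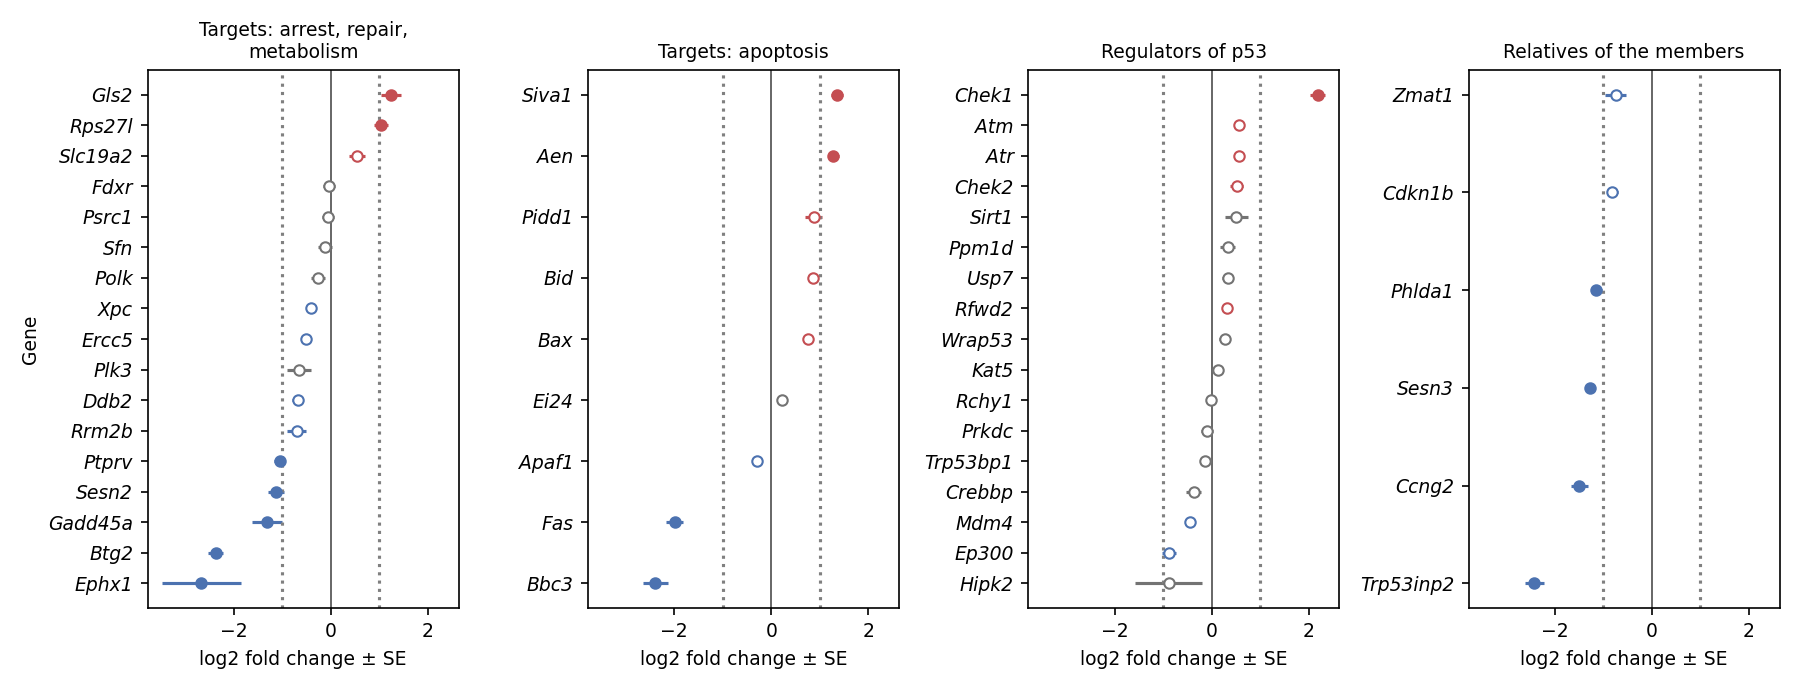
Log2 fold changes (washout relative to GSI, bars for the standard error) of the tested genes of the 4 further lists (targets of arrest, repair and metabolism, targets of apoptosis, regulators, relatives); red rose and blue fell at the adjusted p-value, gray did not pass, filled points are past both thresholds, and dotted lines mark -1 and 1. Values run from -2.67 (Ephx1, which rests on few reads) to 2.19 (Chek1), with targets on both sides of 0 and all 6 relatives below it.

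**Figure D5:**
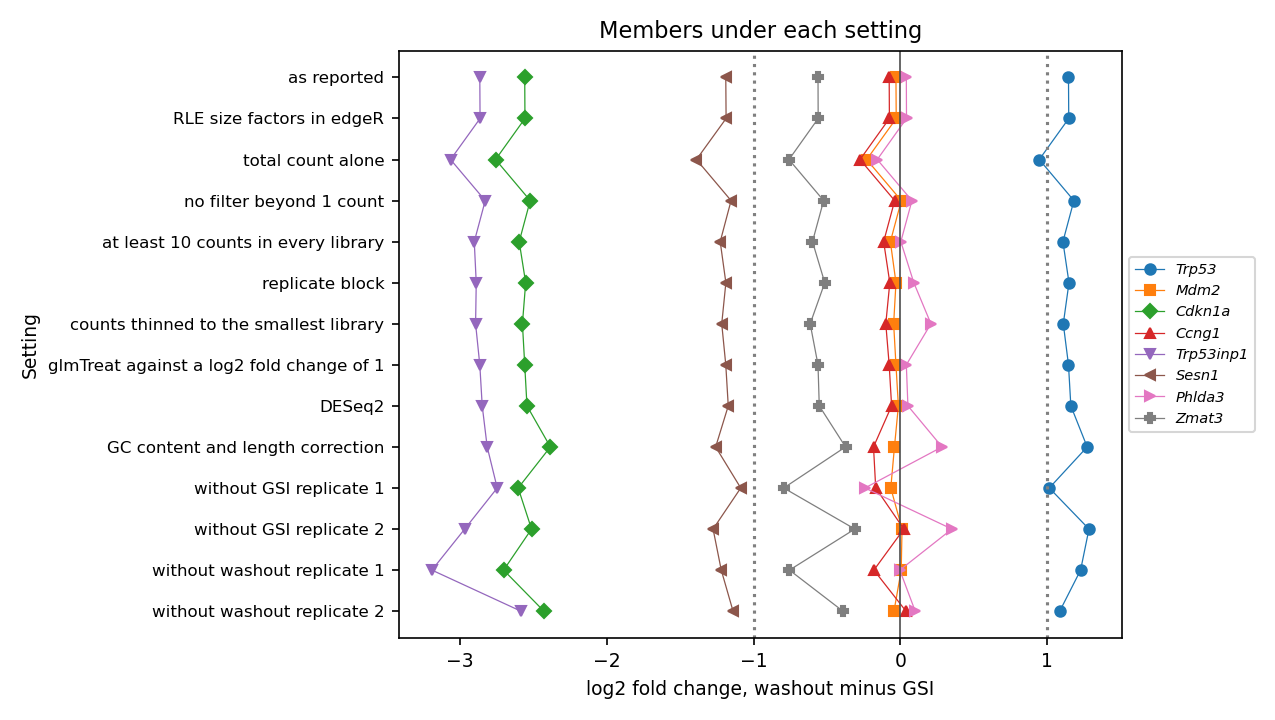
Log2 fold change of the 8 tested genes (markers) under each setting of the analysis (rows), with dotted lines at -1 and 1. Cdkn1a, Trp53inp1 and Sesn1 stay below -1 in every row, Trp53 stays above 1 except with the total count alone (0.95), and Mdm2, Ccng1 and Phlda3 stay around 0.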

How the data were processed

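RNA-Seq was measured in 4 libraries of total RNA depleted of ribosomal RNA, prepared with a stranded kit. Per the methods, adapters were removed with trimGalore, HISAT2 2.2.1 placed the reads on mm9, and summarizeOverlaps assigned them to genes of the iGenomes annotation. The strand setting and overlap mode are not given in the sources used here, so genes sharing exonic bases with a neighbor are uncertain. The values deposited by the authors are raw read counts per gene, and every column was used. Washout was compared with GSI in edgeR 4.0.16 (R 4.3.3) with filterByExpr, TMM factors and the quasi-likelihood test without covariates, fitted on the whole table with Benjamini-Hochberg adjustment over the 12266 genes tested. Standard errors were derived from the fold change and its F statistic. Positions, exon lengths and sequences were taken from GENCODE vM1 and the NCBIM37 genome, the same build as mm9, to which 20641 symbols matched a single gene. The scripts were tested on simulated counts. The 9 genes and the lists were chosen with earlier results of these data known. Named in full were these 9, up to 6 genes past both thresholds in each further list, and the highest and lowest gene of a list; other list genes were named after their values were seen. Alternatives were DESeq2 1.42.0, other scalings and filters, a replicate block, thinned counts, glmTreat, a correction for GC content and length, and leaving out each library.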

Additional observations from a re-analysis of the deposited data

How the results depend on the processing

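With the replicate number as a block, 981 genes were upregulated and 1576 downregulated past both thresholds, against 950 and 1437 without it. The deviations of same-numbered libraries correlated at 0.50, but only 2 numbers are shared and replicate 1 was the deeper library in both conditions, so the numbers were not taken as pairs. At the adjusted p-value alone, 4243 genes rose and 4216 fell under the block, against 3315 and 3120 without it. Zmat3 (adjusted p = 0.00506 in edgeR's quasi-likelihood test) and Hipk2 (0.00105) were among those gained. No other gene named by the rule crossed the adjusted p-value. Of the other list genes, Plk3, Polk, Ei24, Usp7, Ppm1d, Sirt1, Crebbp and Wrap53 also crossed it. With the total count alone 586 genes were upregulated, which takes their share of all genes past both thresholds from 39.8% to 23.0%. Under that scaling 0 of the 9 genes were upregulated, and 2 regulators and 5 relatives were past both thresholds. With glmTreat against a log2 fold change of 1, which asks for more than 1, 308 genes were upregulated and 501 downregulated. In it 0 of the 9 genes were upregulated, and 1 target of arrest, repair and metabolism, 2 of apoptosis and 1 relative remained called. Cdkn1a and Trp53inp1 passed it, whereas Sesn1 (adjusted p = 0.170) and Trp53 (0.345) did not. Leaving out 1 library at a time gave 1 to 2 regulators past both thresholds. In these fits 1 condition holds 1 library, which is assumed to vary like the others. The sign turned for genes close to 0 and for Hipk2, whose replicates differed. Without any filter beyond 1 count, Mdm2 had a log2 fold change of 0.0057. With 1 library left out, Mdm2 ranged from -0.066 to 0.010, Ccng1 from -0.18 to 0.037, Phlda3 from -0.24 to 0.35 and Hipk2 from -2.19 to 0.30, and with the total count alone Phlda3 had -0.16. By the longest transcript, the RPKM level was 14.2 in GSI and 31.3 upon washout for Trp53, 31.3 and 30.6 for Mdm2, and 63.5 and 10.7 for Cdkn1a, 204.7 in GSI for Trp53inp1, and 28.9 for Sesn1 and 8.41 for Phlda3 upon washout. The correction for GC content and length covered 10962 of the tested genes (89.4%). In it 979 genes were upregulated and 1082 downregulated past both thresholds, an upregulated share of 47.5%. DESeq2 gave 952 and 1161, a share of 45.1%. The cause of these differences was not tested. Depth limits the genes with few reads, such as Ephx1.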

Other observations

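Trp53cor1, a noncoding RNA gene known as a neighbor of Cdkn1a and as a p53 target, was looked up after its values were seen. Its reads numbered 33 and 27 in GSI and 7 and 1 upon washout, or 1.03 and 1.85 CPM against 0.206 and 0.0744 CPM. The log2 fold change of Trp53cor1 was -3.04 (standard error 0.585, adjusted p = 0.00644 in edgeR's quasi-likelihood test), in the same direction as Cdkn1a, and it rests on few reads.

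Cdkn2a had 0 reads in every library, and its neighbor on chromosome 4, Cdkn2b, had 1 read in GSI replicate 2 and 0 in the others. Mtap, on the other side of Cdkn2a, had 790 and 362 reads in GSI and 3132 and 990 upon washout, a log2 fold change of 1.75 (adjusted p = 0.000380 in the same test). These 3 genes were also looked at after the values of Cdkn2a were seen.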
